A study of Mus musculus with 14 samples.

Results

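H3K27ac sites were examined at 10 genes of the Wnt pathway in immortalised mouse embryo fibroblasts (iMEF). The genes were the R-spondins Rspo1, Rspo3 and Rspo4, the ligands Wnt5a, Wnt5b and Wnt3a, the secreted antagonists Sfrp1, Dkk1 and Dkk2, and Axin2, a target gene of the pathway. A site was assigned to a gene if it overlapped the annotated gene body or the 50 kb on either side of it, and the stretch so defined is called the interval of the gene. In total 83 of the 122228 listed sites were assigned, and the 10 genes were compared with 21755 protein-coding genes on chromosomes 1 to 19 and X. The assigned site closest to the limit was 49.6 kb from the body of Dkk1, and the closest site beyond it was 51.78 kb from the body of Dkk2.

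Wnt ligands are secreted glycoproteins that bind Frizzled receptors, in the canonical pathway together with the co-receptors Lrp5 and Lrp6, and thereby stabilise β-catenin, which activates transcription with TCF and LEF factors at target genes. R-spondins amplify this signal, because they bind Lgr receptors and the membrane ligases Rnf43 and Znrf3, which otherwise remove Frizzled from the cell surface. Sfrp proteins bind Wnt ligands, Dkk1 and Dkk2 bind the Lrp co-receptors, and Axin2 is a scaffold of the complex that destroys β-catenin. Wnt5a and Wnt5b mostly signal independently of β-catenin and are typical of mesenchymal cells. H3K27ac, acetylation of lysine 27 of histone H3, is found at active promoters and enhancers.

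The study used ChIP-seq to follow H3K27ac upon loss of ASH2L, a subunit of the complexes that methylate lysine 4 of histone H3. All cells had floxed Ash2l alleles with exon 4 deleted through Cre-ER and depended on an introduced human ASH2L fused to FKBP, which is degraded when dTAG is added. The study's sequencing was carried out with a single clone. The 14 libraries formed 8 groups. H3K27ac was measured in 2 libraries of control cells without dTAG and in 2 libraries at each time of dTAG treatment, after 30 min and after 2, 4, 8 and 16 h. Control cells and cells after 16 h also gave 1 library of input chromatin each. The sites of all samples were available as one list of positions, with no value for a library or a time point. The levels of H3K27ac at these genes, their change after dTAG and the error between replicates were therefore not analysed here, the list did not give the read depth behind a site, and the values below describe where sites were present in at least one of the conditions, in all or in some of the cells.

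The cells' label was set against marker genes. A site within 1 kb of a transcription start site (TSS) was found for 9 of 12 fibroblast markers, and 2 others, Col1a1 and Prrx1, had a wide site over the TSS. Of the markers of other cell types, 1 of 6 epithelial, 1 of 6 blood and 3 of 5 endothelial markers had such a site. So did 2 of 6 neuronal and 0 of 5 pluripotent markers. Counting any overlap with the window added no marker outside the fibroblast list. Over all protein-coding genes the share was 54.7%, with 81.3% for CpG-rich 5′ ends, as defined below, and 21.6% for the others. CpG-rich 5′ ends were found for 5 of 12 fibroblast, 6 of 6 epithelial and 2 of 5 endothelial markers. They were found for 3 of 6 neuronal, 0 of 6 blood and 0 of 5 pluripotent markers. The lists are thus not directly comparable.

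Of the 10 genes, 5 had a site whose middle was within 1 kb of one of their own TSSs, namely Rspo3, Wnt5a, Wnt5b, Dkk2 and Axin2. Among all protein-coding genes the share was 54.7%, so that 5 of 10 was close to the background. The promoter sites were at 1 of 3 R-spondins, 2 of 3 Wnt ligands, 1 of 3 antagonists and the target Axin2. The remaining 5 genes, Rspo1, Rspo4, Wnt3a, Sfrp1 and Dkk1, had no site within 3 kb of their 5′ end. These 5 genes also had no site in their bodies, and all 34 sites found in gene bodies were in the 5 genes with a promoter site. The 34 included the 7 promoter sites themselves, so that the counts were not independent, and 16 of the 34 were in Wnt5b. The share of protein-coding genes without a site in the body was not determined, neither over all of them nor over those without a promoter site. Whether this split is usual can therefore not be told here.

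CpG-rich 5′ ends were present at genes with and without a promoter site. An end was called CpG-rich where a window of 500 bp within 1 kb of it reached 55% GC and 0.65 of the CpGs that its base composition would give. By this criterion 9 of the 10 genes were CpG-rich, Dkk1 being the exception, compared to 55.5% of protein-coding genes. A promoter site was found at 5 of these 9 genes. Over all protein-coding genes, the share with a promoter site was 81.3% of those with a CpG-rich 5′ end and 21.6% of the others. Rspo1, Rspo4, Wnt3a and Sfrp1 were thus CpG-rich without a promoter site.

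The 200 bp upstream of the 5′ end are shown for 5 genes to set promoters with and without a site side by side, with CpG dinucleotides in capitals. They were read from GRCm38.p6 along the direction of transcription, and Wnt5b and Dkk2 had a promoter site while Wnt3a, Sfrp1 and Dkk1 did not. A promoter site did not always reach into this stretch. Those of Wnt5b and Axin2 nearest to the 5′ end began 19 and 50 bp downstream of it.
Wnt5b (chr6:119544348-119544547, minus strand): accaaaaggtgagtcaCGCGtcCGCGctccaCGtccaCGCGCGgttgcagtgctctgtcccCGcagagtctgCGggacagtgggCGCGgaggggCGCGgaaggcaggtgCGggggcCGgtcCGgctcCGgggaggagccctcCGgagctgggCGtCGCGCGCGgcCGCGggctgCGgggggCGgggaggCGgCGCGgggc
Dkk2 (chr3:132085092-132085291, plus strand): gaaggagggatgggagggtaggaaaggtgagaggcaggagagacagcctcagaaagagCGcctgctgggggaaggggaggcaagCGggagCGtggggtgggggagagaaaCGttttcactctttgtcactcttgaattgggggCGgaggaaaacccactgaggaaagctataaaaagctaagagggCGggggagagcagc
Wnt3a (chr11:59290753-59290952, minus strand): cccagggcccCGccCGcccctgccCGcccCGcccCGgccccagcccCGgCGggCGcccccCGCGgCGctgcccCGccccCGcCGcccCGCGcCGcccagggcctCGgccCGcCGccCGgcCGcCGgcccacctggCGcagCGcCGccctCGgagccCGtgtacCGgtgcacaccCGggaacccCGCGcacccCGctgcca
Sfrp1 (chr8:23411302-23411501, plus strand): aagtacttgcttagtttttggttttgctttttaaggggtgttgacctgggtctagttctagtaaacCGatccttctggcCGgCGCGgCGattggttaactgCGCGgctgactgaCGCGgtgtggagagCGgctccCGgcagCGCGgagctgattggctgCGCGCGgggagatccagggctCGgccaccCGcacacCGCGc
Dkk1 (chr19:30549666-30549865, minus strand): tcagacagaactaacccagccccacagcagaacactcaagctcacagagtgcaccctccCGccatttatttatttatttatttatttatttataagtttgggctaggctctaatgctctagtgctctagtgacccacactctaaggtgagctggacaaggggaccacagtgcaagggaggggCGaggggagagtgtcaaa
The stretch of Wnt3a contained 33 CpGs, more than the 31 of Wnt5b, although Wnt3a had no promoter site. Sfrp1, also without a promoter site, had 20 CpGs. Dkk2 had a promoter site and 6 CpGs, close to the median of 7 over 21755 protein-coding genes, whose quartiles were 2 and 15. Dkk1 had 2. Among the genes not shown, the counts were 13 for Rspo3, 7 for Wnt5a and 23 for Axin2, which had a promoter site, and 22 for Rspo1 and 23 for Rspo4, which had none. The number of CpGs in this stretch therefore did not separate the genes with a promoter site from those without, since both sets overlapped over most of their range.

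**Figure D1:**
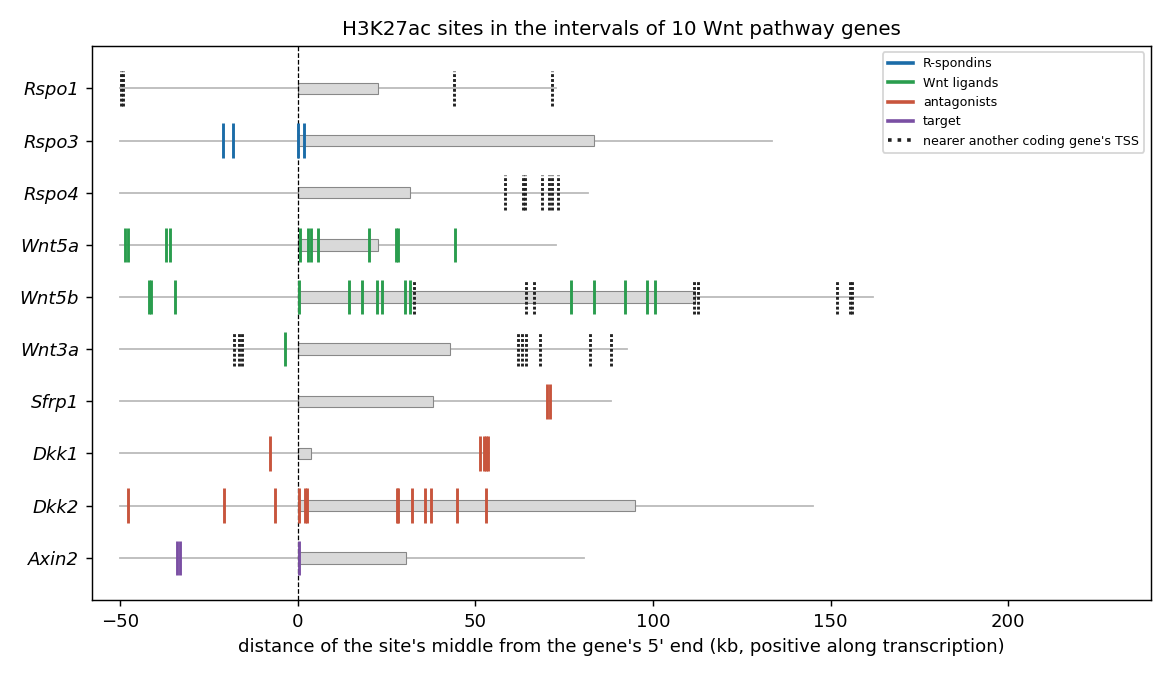
Position of the 83 H3K27ac sites relative to the 5′ end of each gene in kb, with gene bodies as grey bars, 50 kb flanks as lines and each site as a vertical tick at its middle. Coloured ticks were nearest to a TSS of the gene itself (55 sites), dotted black ticks were nearer to the TSS of another protein-coding gene (28 sites), including all sites of Rspo1 and Rspo4 and 9 of 10 at Wnt3a.

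**Figure D2:**
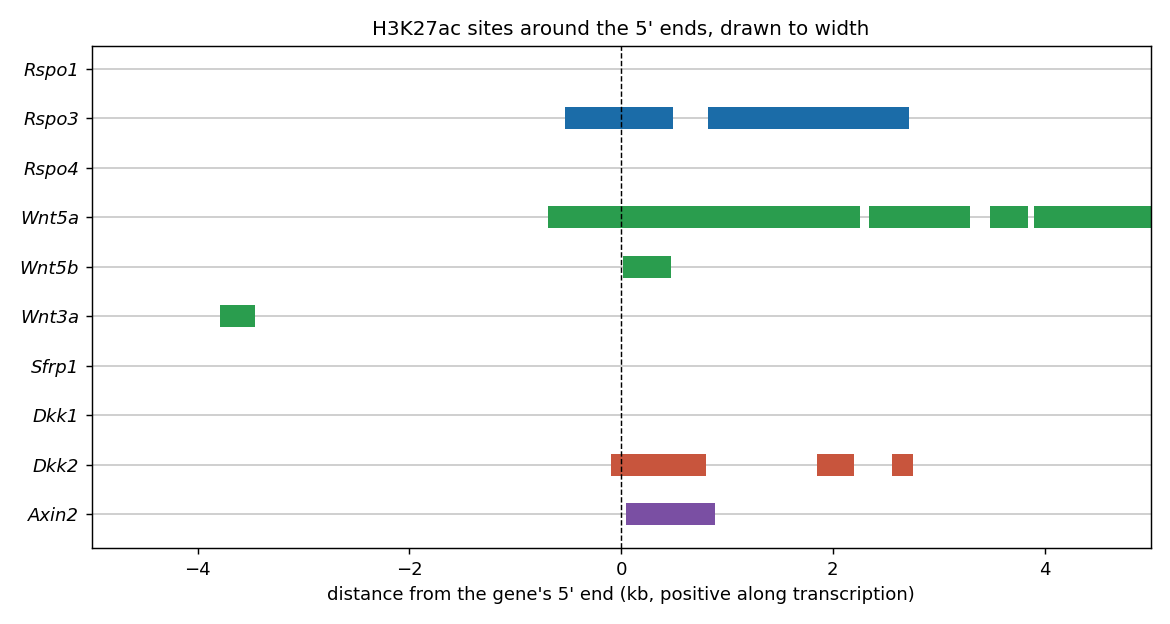
Sites within 5 kb of the 5′ ends, drawn to width, with distance from the 5′ end in kb along the direction of transcription. Rspo3, Wnt5a and Dkk2 had a site over the 5′ end, those of Wnt5b and Axin2 began 19 and 50 bp downstream of it, and the nearest site of Wnt3a was 3453 bp upstream.

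The density of sites in the intervals was set side by side by role. The 3 Wnt ligands had 45 sites, or 9.43 per 100 kb, compared to 3.43 for the R-spondins (15 sites), 4.58 for the antagonists (20 sites) and 2.30 for Axin2 (3 sites). Sites covered 7.60% of the intervals of Wnt ligands, 2.40% of those of R-spondins, 1.65% of those of antagonists and 1.41% of that of Axin2. These are counts over 3 genes or 1 gene per role, without Rspo2 and the other members of each family, and the roles overlapped. With only the sites nearest to each gene, R-spondins had 0.914 sites per 100 kb and were below Axin2. In the same setting Wnt ligands fell to 5.87, while antagonists stayed at 4.58. Without the narrowest 25% of the list antagonists had 2.29, below R-spondins with 2.74 and just below Axin2 with 2.30. Wnt3a with 7.01 sites per 100 kb was just above Dkk2 with 6.67, and within the antagonists the density ranged from 1.45 at Sfrp1 to 6.67. Set against all protein-coding genes, with a median of 5.29 sites per 100 kb and quartiles of 1.43 and 10.5, only Wnt5b (10.86) lay above the upper quartile and none below the lower, with Sfrp1 just above it. The median separated 5 genes above it, the 3 Wnt ligands, Dkk2 and Rspo4, from the other 5. Rspo2, which was not among the 10 genes, had 48 sites, or 19.2 per 100 kb, so the low density held for the 3 R-spondins only. In the full lists the medians were 4.29 for 4 R-spondins (range 2.18 to 19.2) and 6.66 for 19 Wnt ligands (1.39 to 47.15). For 13 antagonists the median was 3.70 (0 to 34.26).

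**Figure D3:**
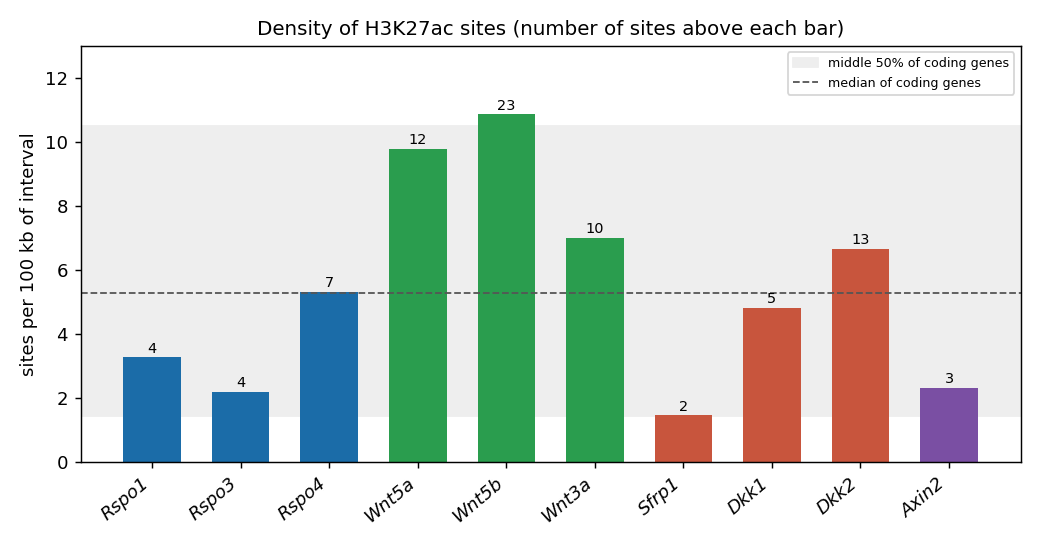
Sites per 100 kb of interval for each gene, coloured by role, with the number of sites above each bar. The grey band spans the middle 50% of protein-coding genes (1.43 to 10.5) and the dashed line is their median of 5.29, and the 3 Wnt ligands and Dkk2 rise above that line while Rspo4 is level with it.

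Sites that lay in an interval did not always belong to the named gene by position. For 55 of 83 sites (66.3%, 95% Wilson interval 55.6 to 75.5%) the nearest protein-coding TSS was that of the gene itself. For the R-spondins this was so for 4 of 15 sites, for the Wnt ligands for 28 of 45, for the antagonists for 20 of 20, and for Axin2 for 3 of 3. Of the 28 sites nearer to another gene, 13 were at a TSS. Across the 83 sites, 22 (26.5%, interval 18.2 to 36.9%) were within 1 kb of a TSS of any gene, compared to 18.7% of all listed sites, and 7 were at a TSS of the gene whose interval they were in. These intervals cover counting error only, as neighbouring sites are not independent. Which gene a distal site acts on cannot be told from position.

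Among Rspo1, Rspo3 and Rspo4, only Rspo3 (chromosome 10, 29452416 to 29535867, minus strand) had a site at its own promoter. A site of 1014 bp (29535381 to 29536394) covered the 5′ end and the UTR, and also an exon of the non-coding gene Gm48159, which is annotated at the same locus. The widest site of the interval, with 1903 bp (29533144 to 29535046), was in an Rspo3 intron, 821 bp downstream of the 5′ end, at a TSS of Gm48159. Both sites together spanned 3251 bp. Another 2 narrow sites of 226 and 209 bp were located in introns of Gm48159, 18.2 and 20.81 kb upstream of Rspo3, and the latter consisted of repeat sequence for 80.86%. The remaining gene body was without sites, and Rspo3 had 2.18 sites per 100 kb, more than 30.5% of protein-coding genes. Rspo2, the only R-spondin outside the 10 genes, had 48 sites, or 19.2 per 100 kb, and a promoter site of 2853 bp over its 5′ end.

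Rspo1 (chromosome 4, 124986430 to 125009099, plus strand) had 4 sites in its interval, the nearest of which was 43.55 kb from its 5′ end. The widest (893 bp, 125029985 to 125030877) was at the start of Gnl2, which encodes a nucleolar GTPase. Sites of 630 and 601 bp were at the shared start region of Cdca8, a subunit of the chromosomal passenger complex, and 9930104L06Rik, and the last, of 276 bp, was in an intron of Dnali1. None was nearest to Rspo1. Rspo4 (chromosome 2, 151842927 to 151874668, plus strand) had 7 sites, all downstream of the gene and all nearest to Angpt4, an angiopoietin gene. The first began 58.29 kb from the 5′ end of Rspo4, and the widest (2180 bp, 151910568 to 151912747) covered the start of Angpt4. With 5.31 sites per 100 kb Rspo4 ranked highest of the R-spondins studied here, but without a site that was nearest to it.

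The only site of the 83 with the letters CTTTGAT of the TCF/LEF motif, on either strand, in its central 200 bp was in the Rspo4 interval. This intergenic site measured 573 bp (151906720 to 151907292) and was 4204 bp from the TSS of Angpt4. Its central 200 bp are shown from the plus strand, with the letters CTTTGAT and those of the AP-1 motif, TGANTCA, in capitals.
Rspo4 interval (chr2:151906907-151907106, plus strand): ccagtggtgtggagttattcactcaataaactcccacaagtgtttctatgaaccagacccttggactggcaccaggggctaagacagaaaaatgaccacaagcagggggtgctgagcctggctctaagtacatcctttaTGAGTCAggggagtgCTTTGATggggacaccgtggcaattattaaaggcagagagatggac
The AP-1 letters were just in front of the TCF/LEF letters. Over all listed sites, CTTTGAT was found in the central 200 bp of 2.70% and TGANTCA in 8.10%, compared to 1 (1.20%, interval 0.213 to 6.51%) and 4 of 83 (4.82%, interval 1.89 to 11.75%) here. The other 3 sites with central AP-1 letters were in the intervals of Wnt5b, Wnt3a and Axin2. Both intervals include the share of the whole list, so that a difference was not detectable with 83 sites.

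Wnt5a (chromosome 14, 28504750 to 28527448, plus strand), a ligand of non-canonical signalling, had the widest site of all 10 genes. A site of 2945 bp (28504062 to 28507006) extended across the 5′ end into UTR and coding exons, and the widest, of 3342 bp (28508651 to 28511992), was located at internal TSSs. Together with sites of 959 and 356 bp between them they formed a group that spanned 7931 bp, with gaps of less than 1 kb. The promoter sites contained 178 and 154 CpGs, with GC contents of 57.6 and 55.2%. A site of 361 bp was in the UTR at the far end of the gene. The other 7 sites were narrow, with 210 to 549 bp. Of these, 4 were in introns of the neighbouring gene Erc2, between 35.93 and 48.48 kb upstream, and 3 were intergenic and downstream. By protein-coding TSSs, all 12 sites were nearest to Wnt5a, although 1 of those in Erc2 was within 1 kb of another annotated TSS of Erc2.

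Wnt5b (chromosome 6, 119432531 to 119544347, minus strand) had 23 sites, the highest number and the highest density, and 16 were in its body. At the 5′ end a short site of 450 bp (119543879 to 119544328) with 78.4% GC began 19 bp downstream of it. A second promoter site of 932 bp (119466946 to 119467877) was at an internal TSS, 76.47 kb further downstream, with 51.3% GC. The widest site, 3018 bp (119478589 to 119481606), was inside a Wnt5b intron but at the start of Fbxl14, an F-box gene that is located within Wnt5b, and was the site with most CpGs (261). A cluster of 3 intronic sites spanned 4002 bp, began 29.16 kb from the 5′ end, and included a site of 2006 bp (119513178 to 119515183) that was not at a TSS. A site of 1860 bp, 97.41 kb from the 5′ end, covered UTR and coding sequence. Its middle was 3375 bp from an internal protein-coding TSS of Wnt5b. Of the 23 sites, 15 were nearest to Wnt5b, 5 to Adipor2, an adiponectin receptor gene, and 3 to Fbxl14. Among Wnt pathway genes, Wnt5b was closest in density to Fzd4 (11.03), Ctnnb1 (10.66), which encodes β-catenin, and Wls (10.55), which is required for secretion of Wnt ligands. Wnt5a (9.78) was closest to Porcn (9.76), which attaches the lipid to Wnt ligands, Tcf7l1 (9.51) and Wls.

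One site of this intronic cluster of Wnt5b (1134 bp, 119511182 to 119512315) contained 7 matches to TGANTCA and 2 to CTTTGAT, outside its central 200 bp. It was chosen after its values were seen. Only 34 of 122171 listed sites, or 0.0278%, had 7 or more matches to TGANTCA. The stretch with most of the matches is shown along the direction of transcription of Wnt5b, with both sets of letters in capitals.
Wnt5b intron (chr6:119511963-119512238, minus strand): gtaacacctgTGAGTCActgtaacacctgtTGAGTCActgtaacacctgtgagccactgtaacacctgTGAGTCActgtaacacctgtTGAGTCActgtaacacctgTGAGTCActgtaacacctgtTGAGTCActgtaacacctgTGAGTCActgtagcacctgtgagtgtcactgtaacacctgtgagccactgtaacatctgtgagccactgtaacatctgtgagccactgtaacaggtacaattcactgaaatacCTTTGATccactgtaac
The matches were part of a tandem repeat. Successive starts of TGANTCA were 19 or 20 bp apart in 5 cases and 38 bp in 1 case, where the repeat unit in between did not contain the letters. The reference marked 1.85% of the site as repeat sequence. Hence the 7 matches were copies of one unit rather than separate sequences.

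Wnt3a (chromosome 11, 59248033 to 59290752, minus strand), a canonical ligand, had 10 sites in its interval, of which only 1 was nearest to it. This was an intergenic site of 338 bp (59294205 to 59294542), 3453 bp upstream of the 5′ end. Of the others, 4 were nearest to Arf1, a small GTPase gene, 3 to Wnt9a, and 1 each to Mrpl55, a mitochondrial ribosomal protein gene, and 2310033P09Rik. The widest (1536 bp, 59226735 to 59228270) was in the UTR of Arf1. Wnt9a, which is next to Wnt3a, had 2 promoter sites of up to 742 bp. Wnt3a had none, neither at its start nor in its body.

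The sites of the antagonists were narrower at the median than those of the whole list. Their median width was 278.5 bp, compared to 573 bp for the R-spondins, 478 bp for the Wnt ligands and 401 bp for the whole list. Of 20 sites, 10 measured at most 300 bp, compared to 32.5% of the 83 sites and 33.1% of all listed sites. Of the 20, 0 exceeded 1000 bp, whereas 11 of 45 sites of the Wnt ligands and 3 of 15 of the R-spondins did. The share over 1000 bp in the whole list was not determined. Dkk2 gave 13 of the 20 sites, with a median of 353 bp. The medians were 255 bp for Dkk1 (5 sites) and 215.5 bp for Sfrp1 (2 sites). Width also went along with position. Sites at a TSS had a median width of 893.5 bp (n = 22) and those elsewhere of 356 bp (n = 61), and 1 site of the antagonists was at a TSS. The part of position in the narrow widths was not tested.

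Dkk2 (chromosome 3, 132085292 to 132180304, plus strand) was the antagonist with most sites, 13, all of them nearest to it. A site of 894 bp (132085199 to 132086092) extended across the 5′ end into UTR and coding exons and was the widest. Another 9 sites, of 200 to 785 bp, were in introns, the last of which ended 52992 bp from the 5′ end, while the rest of the gene body and the downstream flank had none. Repeat sequence made up 82.3, 61.2 and 60.8% of 3 of the intronic sites. The other 3 sites were intergenic, 6.07, 20.67 and 47.53 kb upstream.

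Dkk1 (chromosome 19, 30545863 to 30549665, minus strand), which is both an antagonist and a target of the pathway, had no site at its promoter. Its 5 sites were intergenic. A site of 255 bp (30557360 to 30557614) was 7695 bp upstream, and 4 sites of 226 to 429 bp formed a group of 2368 bp that began 51.28 kb downstream of the 5′ end. Sfrp1 (chromosome 8, 23411502 to 23449632, plus strand) had the fewest and narrowest sites, with 200 bp (23481634 to 23481833) and 231 bp (23482524 to 23482754), both intergenic and 70.13 and 71.02 kb downstream of its 5′ end. A width of 200 bp was the smallest in the list.

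**Figure D4:**
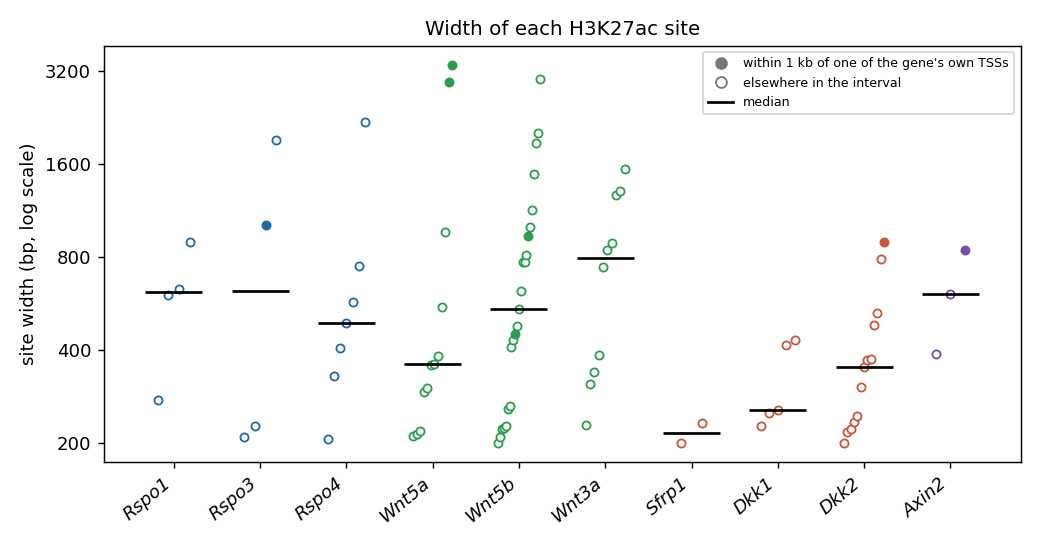
Width of each of the 83 sites in bp on a log scale, by gene and coloured by role. Filled points were within 1 kb of one of the gene's own TSSs (7 sites, 450 to 3342 bp), open points lay elsewhere, and bars are medians, which were lowest at Sfrp1 (215.5 bp) and Dkk1 (255 bp).

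Axin2 (chromosome 11, 108920349 to 108950783, plus strand) is a target gene in most cells that respond to canonical Wnt ligands and is used as a readout of the pathway. It had 3 sites. The promoter site (842 bp, 108920399 to 108921240) began 50 bp downstream of the 5′ end, overlapped UTR exons, and contained 91 CpGs at 69.1% GC. The letters CTTTGAT occurred in it 2 times, at 78 bp from the 5′ end in the UTR and at 883 bp outside it. The match at 883 bp is labelled intron because it overlapped no annotated UTR or coding exon. Exons of non-coding transcripts of Axin2 were not checked. The latter match is shown with its flanks, the letters in capitals, from the plus strand, because Axin2 is known as a direct target of TCF and LEF factors.
Axin2 intron (chr11:108921221-108921249, plus strand): cggccggcgcgCTTTGATgtgcggggcgg
Both matches were outside the central 200 bp. With whole sites searched, 8 of 83 sites (9.64%) had the letters, compared to 7.96% of all sites, and Rspo1, Rspo3 and Wnt5b with 1 site each, and Rspo4 and Dkk2 with 2 each, were the other genes with matches. None of the 10 genes had the letters in the 200 bp upstream of its 5′ end, and 2.27% of protein-coding genes did. The other sites of Axin2, with 605 and 388 bp, were next to each other, 33.6 and 32.84 kb upstream, and the gene body downstream of the promoter site had none. Axin2 was closest in density to Rnf43 (2.31), Nkd2 (2.32) and Rspo3 (2.18). Both Rnf43, the ligase named above, and Nkd2, an inhibitor, are also targets of the pathway, and neither had a promoter site.

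The 10 genes were then placed among 77 genes of the pathway, listed by role, some of them in 2 lists. A promoter site was found for 42 of 77 genes (54.5%), close to the background of 54.7%. It was found for 37 of the 67 genes (55.2%) other than the 10. However, 65 of the 77 genes were CpG-rich, and 39 of these 65 had a promoter site. Over all protein-coding genes, 55.5% were CpG-rich, and 81.3% of those had a promoter site. Among secreted factors, 5 of 19 Wnt ligands had a promoter site, for example Wnt5a and Wnt5b, but not Wnt1 and Wnt2, although 15 of 19 were CpG-rich. The counts were 2 of 4 for R-spondins and 5 of 13 for antagonists, where Sfrp2 and Frzb had a site and Sfrp1 and Sfrp5 did not.

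Components other than secreted factors were listed separately. Promoter sites were present at 10 of 15 receptors and co-receptors (Fzd1 and Fzd3, but not Fzd6), with wide sites over the TSSs of Fzd2 and Fzd7 in addition, and at 3 of 5 genes for R-spondin receptors and their ligases (Lgr4 and Lgr6, but not Lgr5). Dishevelled proteins and the destruction complex reached 10 of 11 (Dvl1 and Dvl2, with Apc2 as the exception), TCF and LEF factors 4 of 4 (Tcf7 and Lef1), and the genes for ligand secretion 2 of 2 (Porcn and Wls). Of the targets, 5 of 12 genes had a promoter site, among them Axin2 and Znrf3 but not Lgr5 and Nkd1. Counted by any overlap of a site with the window, the numbers rose to 44 of 77 genes, compared to 55.8% of protein-coding genes. At least 1 site in the interval was found for all 10 genes, compared to 82.1% of protein-coding genes, and the 4 of 77 genes without any were Sostdc1, Fzd6, Fzd10 and Sp5. These differences between lists are counts, and no test of them was made.

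**Figure D5:**
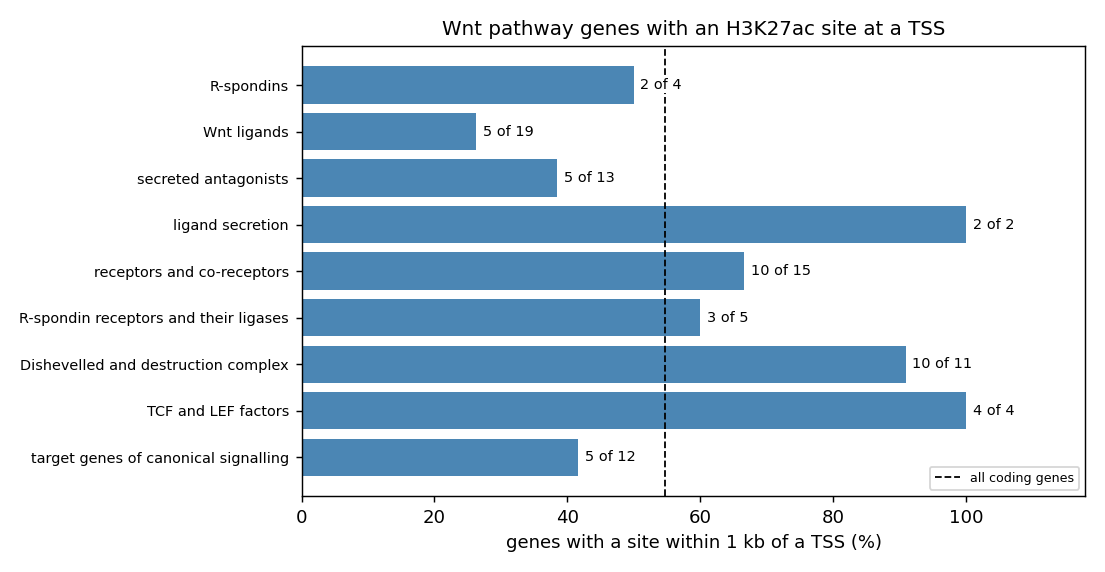
Share of genes in each Wnt pathway list with a site within 1 kb of a TSS in percent, with the number of genes beside each bar. The dashed line marks 54.7%, the share of all protein-coding genes, below which the R-spondins, Wnt ligands, secreted antagonists and target genes lie.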

How the data were processed

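H3K27ac ChIP-seq of iMEF cells comprised 12 H3K27ac and 2 input libraries. Per the labels and the study's methods, the authors used Trim Galore to trim reads, BWA for alignment to mm10 (GRCm38) and SAMtools for filtering. They merged replicates with Picard, called narrow peaks with MACS and joined the peaks of all samples. Versions and thresholds were not given in the sources used here. The deposited list analysed here held genome positions (chromosome, start and end) without any count or signal, so it allowed no test between groups, and precision cannot be given from depth. The authors' own table of changed sites was not used here.

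Start positions were read as counted from 0 and are printed counted from 1. Genes were taken from GENCODE release M21 and sequence from GRCm38.p6. Promoter sites had their middle within 1 kb of an annotated TSS. Tools were Python 3.11.15, pysam 0.24.0, pandas 2.3.3, numpy 2.4.6, scipy 1.17.1 and matplotlib 3.10.9. The assignment of sites, distances and motif search were tested on simulated data. Intervals of shares were 95% Wilson intervals.

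The 10 genes, the pathway and marker lists and the alternatives were chosen with earlier results of these data known. All 10 genes were described. Sites named were those at or nearest to each 5′ end, the widest, and those with central TCF/LEF letters, as well as neighbouring genes with a TSS at 1 of the 3 widest sites, the 3 pathway genes closest in density, and the first genes of each list with and without a site. Other sites and genes were named after their values were seen. Alternatives were other flanks and windows, merged or fewer sites, assignment by nearest TSS, protein-coding TSSs and other motif letters.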

Additional observations from a re-analysis of the deposited data

How the results depend on the processing

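The same 5 genes had a promoter site under every alternative run, with windows of 2 and 3 kb, any overlap, protein-coding TSSs only, and without the narrowest 25% of sites. The number of sites near the 10 genes, 83, was 40 with flanks of 10 kb, 127 with 100 kb, 53 after merging sites less than 1 kb apart, and 55 when only sites nearest to the gene were kept. The density of R-spondins changed from 3.43 per 100 kb to 1.01 with flanks of 10 kb, 2.28 after merging and 0.914 with nearest sites only, that of Wnt ligands from 9.43 to 5.87 in both of the latter, that of antagonists from 4.58 to 2.29 without the narrowest 25% and 2.98 after merging, and that of Axin2 from 2.30 to 1.53 after merging. The median width was 605 bp without the narrowest 25% and 868 bp after merging. The share of sites at a TSS was 16.4% with nearest sites only and 39.8% with a window of 3 kb. TCF/LEF letters were found in 9.64% of whole sites (7.96% of all listed sites), and in the central 200 bp of 10.8% with CTTTGNT (15.2% of all) and 0% with CTTTGATC (0.630% of all). By count, the share for CTTTGAT was below that of the list in the central 200 bp and above it in whole sites. With 1 and 8 of 83 sites, a direction could not be resolved. AP-1 letters were found in 19.3% of whole sites (21.1% of all). The order of roles by density changed in 3 settings. R-spondins were above Axin2, but below it with flanks of 10 kb (1.01 and 1.98) and with nearest sites only (0.914 and 2.30). Antagonists were above R-spondins and Axin2. Without the narrowest 25% antagonists (2.29) were below R-spondins (2.74) and just below Axin2 (2.30). Among the roles of the 10 genes, Wnt ligands were highest in every setting run. Any overlap for the pathway lists was chosen after seeing the data. No paired analysis was possible because positions carry no value per sample. Leaving out a replicate was not possible either, and the dependence of the sites on depth or on single libraries was not analysed here.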
